A study of Mus musculus with 5 samples.

Results

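The genes described here encode the proteasome, its activators, and the enzymes that attach ubiquitin to proteins or take it off again. They were chosen by name: a gene belonged if its single symbol in the array's annotation began with Psma, Psmb, Psmc, Psmd, Psme, Ube2 or Usp followed by a digit, or was Ubd. This gave 89 genes of the 9050 named on the arrays, and 87 of them had a value on all 5 arrays, of 8452 such genes in all. The 87 comprised 39 proteasome subunits and activators, 25 ubiquitin-conjugating enzymes (Ube2), 19 deubiquitinases (Usp), the ubiquitin-like modifier Ubd, and 3 genes that share the name but not the role: Psme3ip1, Ube2cbp and the pseudogene Ube2d-ps. Psmb7 and Usp36 each lacked a value on 1 array and stand outside the counts.

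The proteasome is a barrel of stacked rings of alpha and beta subunits that cuts proteins marked with ubiquitin, capped by a regulatory particle whose ATPases unfold them. Interferons lead cells to exchange the constitutive catalytic subunits Psmb5, Psmb6 and Psmb7 for the inducible Psmb8, Psmb9 and Psmb10, which form the immunoproteasome, and to make the PA28 cap of Psme1 and Psme2. In macrophages the immunoproteasome is known for producing peptides for class I presentation. Ubiquitin is passed to targets by conjugating enzymes, which work with ligases, and is removed by deubiquitinases.

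The cells were macrophages grown from C3H/HeJ bone marrow in culture with human CSF-1, from a mouse strain whose Tlr4 mutation makes it respond poorly to lipopolysaccharide (LPS). They received 10 µg/ml LPS of S. minnesota for 0.5, 2, 7 or 21 h, or none (0 h). RNA of each time was hybridised to 1 two-colour cDNA array against RNA of whole C57BL6/J embryos of day 17.5, a common reference from another mouse strain. Each group therefore held 1 array, whether 1 mouse or a pool gave the cells is not stated in the labels, and no difference between times was tested or has a replicate check. Values are deposited log ratios, read as base 10, with the median over the 8452 genes of each array set to 0. A positive value is likely macrophage over embryo. A gene was counted as past the size rule when it differed by 2-fold or more, which is 0.301 on this scale. No source used here states the base, the centring or the direction, and a smaller base would shrink every fold below. The SD between probes of 1 gene is the only error these arrays allow and leaves out the spread of cultures, labelling and hybridisation.

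The 0.5 h array stood apart from the others. Its probes correlated with those of the 0 h array at r = 0.48, against 0.75 to 0.85 for the 2, 7 and 21 h arrays, and it lacked 1104 values against 154 to 257 on the others. Over the 87 members the correlation with 0 h was 0.57, 0.90, 0.83 and 0.73 at 0.5, 2, 7 and 21 h. The pooled SD between probes of the difference from 0 h was 0.30 for the 49 members with at least 2 probes at 0.5 h, and 0.15 to 0.18 at the later times. The results are therefore given over the 0, 2, 7 and 21 h arrays, with the 0.5 h value beside them. The direction of the ratios was itself read from macrophage and embryo genes, so the counts of these that follow are no check of it. Of 8 measured macrophage genes, 6 lay at least 2-fold above the embryo on those 4 arrays, while Cd68 and Tyrobp lay below 0. Of 16 embryo markers, 14 lay at least 2-fold below, and none of the measured markers of T and NK cells (6), B cells (1), dendritic cells (3), neutrophils (7), mast cells (3) or fibroblasts (7) lay 2-fold above on all 4. In bulk RNA, fewer cells of a type and less RNA per cell cannot be told apart.

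The promoter windows of 5 genes are shown here. Psmb8 and Psme1 were among the members of the interferon-inducible group that were not past the size rule at both 2 and 7 h. Psmb9, Psme2 and Ubd were the members of that group past it at both times. With Psmd13 they made 4 of 87 members past it at both times, where 0.923% of all genes were. Each of these 4 passed at both times on 1 probe, and the other probe of Psmb9 and of Psme2 passed at neither time. The Psmb9 calls at both times were lost under alternatives given below. The sequences are those of RefSeq on GRCm38.p6, each running 5′ to 3′ in the direction of the gene from 250 bases before its start to 50 after. They lie at chr17:34187281-34187580 on the minus strand (Psmb9), chr14:55591052-55591351 on the minus strand (Psme2), chr17:37193642-37193941 on the plus strand (Ubd), chr17:34197945-34198244 on the plus strand (Psmb8) and chr14:55578244-55578543 on the plus strand (Psme1). Capitals mark matches, on either strand, to 4 motifs: the core of the interferon-stimulated response element (GAAA, any 2 bases, GAAA), the gamma-activated site (TTCNNNGAA), the kappa B site (GGG, any 2 bases, TTTCC) and the antioxidant response element (TGAC, any 3 bases, GCA).
Psmb9: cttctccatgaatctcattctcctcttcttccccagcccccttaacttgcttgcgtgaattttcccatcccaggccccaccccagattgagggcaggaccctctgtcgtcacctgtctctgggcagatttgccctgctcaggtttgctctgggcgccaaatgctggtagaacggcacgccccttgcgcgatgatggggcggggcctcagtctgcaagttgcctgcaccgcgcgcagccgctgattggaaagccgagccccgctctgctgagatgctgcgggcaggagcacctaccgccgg
Psme2: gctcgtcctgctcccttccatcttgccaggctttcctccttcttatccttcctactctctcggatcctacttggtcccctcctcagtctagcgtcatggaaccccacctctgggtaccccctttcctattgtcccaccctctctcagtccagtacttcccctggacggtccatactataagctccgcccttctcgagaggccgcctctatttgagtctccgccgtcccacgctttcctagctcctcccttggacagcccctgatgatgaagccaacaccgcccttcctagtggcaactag
Ubd: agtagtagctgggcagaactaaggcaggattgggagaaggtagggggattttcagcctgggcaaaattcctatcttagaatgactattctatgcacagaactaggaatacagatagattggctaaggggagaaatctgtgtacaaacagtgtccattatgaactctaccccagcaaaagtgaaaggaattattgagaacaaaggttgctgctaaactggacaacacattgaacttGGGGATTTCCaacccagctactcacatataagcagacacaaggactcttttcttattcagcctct
Psmb8: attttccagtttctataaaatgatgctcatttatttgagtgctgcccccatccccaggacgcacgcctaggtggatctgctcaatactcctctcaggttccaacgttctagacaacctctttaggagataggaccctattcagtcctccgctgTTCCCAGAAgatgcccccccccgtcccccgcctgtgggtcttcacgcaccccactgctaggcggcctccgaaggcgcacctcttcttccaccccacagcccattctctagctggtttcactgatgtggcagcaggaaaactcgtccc
Psme1: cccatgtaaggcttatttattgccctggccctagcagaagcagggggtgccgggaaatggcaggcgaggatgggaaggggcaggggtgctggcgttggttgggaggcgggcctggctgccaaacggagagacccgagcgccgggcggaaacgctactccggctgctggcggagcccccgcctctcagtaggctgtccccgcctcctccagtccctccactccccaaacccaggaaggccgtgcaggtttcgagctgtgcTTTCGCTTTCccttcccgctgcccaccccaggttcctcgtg

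Of the 89 genes, 75 had such a window in the RefSeq table, 87 windows in all. The response element core occurred in 4 of these 87 windows (4.60%) and in 3.44% of all 32851 windows. The gamma-activated site occurred in 5 (5.75%, all windows 8.30%), the kappa B site in 2 (2.30%, all windows 1.63%) and the antioxidant element in 4 (4.60%, all windows 3.04%). Among the windows printed, the one of Ubd held the kappa B letters GGGGATTTCC from base -15 relative to the start, and that of Psmb8 held TTCCCAGAA from base -97. The window of Psme1 held the response element core on the opposite strand from base 9, as TTTCGCTTTC. None of the 4 motifs was found in the windows of Psmb9 and Psme2 printed here, which says only that these letters are not in them. The windows of Psmb10 and Ube2l6, interferon-inducible members not past the size rule at both times, are not printed and held none either. Nor did that of Psmd13, which was past the rule at both times. The 5 printed windows are therefore no comparison of members past the rule with the rest. Psmb9 and Tap1, which codes for a peptide transporter subunit, start back to back: their windows share 275 bases. In RefSeq's gene order the stretch runs H2-DMb2, H2-DMb1, Psmb9, Tap1, Psmb8, Tap2, H2-Ob and H2-Ab1, which puts both inducible subunits among the transporter genes of the histocompatibility region.

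The catalytic subunits of the immunoproteasome stood above the embryo on every array, and the constitutive ones did not. Psmb8 read 0.70, 0.50, 0.76, 0.89 and 0.68 at 0, 0.5, 2, 7 and 21 h. All 7 of its probes were above 0 on the 0, 2, 7 and 21 h arrays, and 6 of 7 were at least 2-fold above on all 4. Psmb9 read 0.72, 1.07, 1.15, 1.13 and 0.34 at the same times, so it was highest at 2 h and lowest at 21 h. Psmb10, measured by 1 probe, read 0.57, 0.63, 0.90, 0.73 and 0.72. At 0 h these ratios correspond to 5.06-fold for Psmb8 (SD between 7 probes 0.18 log units), 5.22-fold for Psmb9 (SD between 2 probes 0.21) and 3.71-fold for Psmb10.

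The constitutive partners lay near or below the embryo. Psmb5, the subunit that Psmb8 replaces, read -0.02, -0.03, -0.02, 0.08 and 0.21 from 0 to 21 h over 2 probes. Psmb6, the partner of Psmb9, read -0.67, -0.80, -0.78, -0.34 and -0.60 on 1 probe. Another Psmb6 probe, without a value at 0 h, read -0.24, -0.12, 0.02 and -0.04 at 0.5, 2, 7 and 21 h, so the low Psmb6 values rest on 1 probe. Another Psmb5 probe, also without a 0 h value, read 0.26, 0.02, 0.19 and -0.02. Psmb7, the partner of Psmb10, read 0.03, -0.05, 0.18 and -0.18 at 0, 2, 7 and 21 h. By probe, all 10 immunoproteasome probes were above 0 on every array, with medians between 0.55 (0.5 h) and 0.82 (2 h). Of the 3 constitutive probes, none was above 0 at 0, 0.5 or 2 h, 1 was at 7 h and 2 were at 21 h. The median of the 3 inducible subunits exceeded that of Psmb5 and Psmb6 by 1.05, 1.05, 1.30, 1.02 and 0.88 at 0, 0.5, 2, 7 and 21 h. These are ratios to the embryo and not amounts, so they do not say which subunit was more abundant in the macrophages. With genes of at least 2 probes, the gap was 0.73 at 0 h and 0.31 at 21 h. With Psmb7 added by leaving the 0.5 h array out, it was 0.72 at 0 h.

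**Figure D1:**
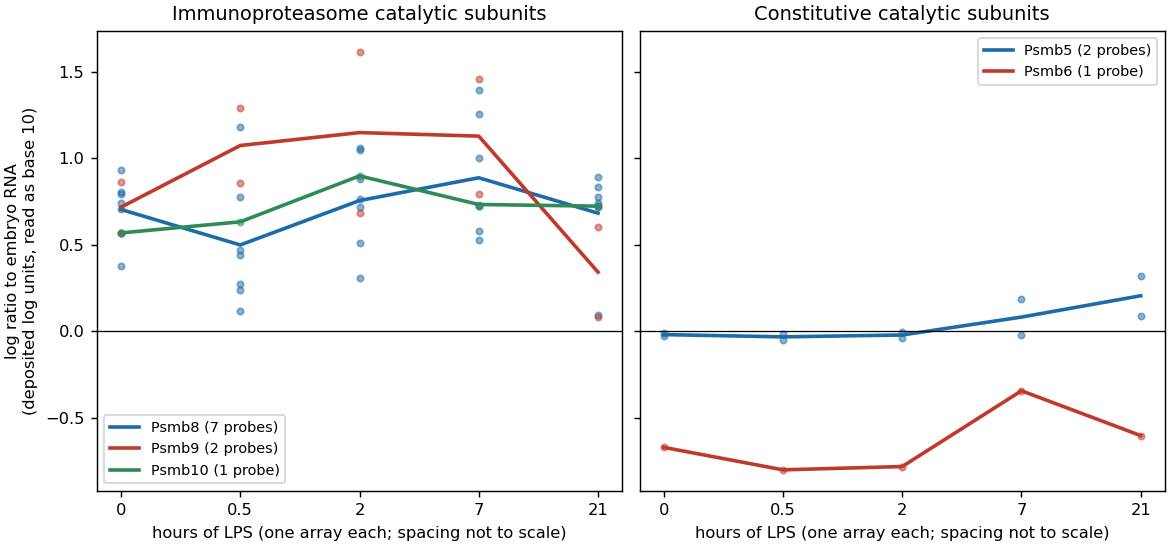
Log ratio to embryo RNA (deposited log units, read as base 10) of the inducible (left) and constitutive (right) catalytic subunits at 0, 0.5, 2, 7 and 21 h of LPS, 1 array each, with points for probes and lines for gene means. All 10 inducible probes lie above 0 on each array, and Psmb9 reads 1.13 at 7 h and 0.34 at 21 h.

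Of the 87 members, 7 (8.05%) lay at least 2-fold above the embryo on all of the 0, 2, 7 and 21 h arrays, where 3.38% of all genes did. They were Psmb8, Psmb9, Psmb10, Psmd1, Ube2t, Usp18 and Usp4. By single probes, 1 of 2 for Psmb9, 1 of 2 for Psmd1 and 1 of 3 for Usp4 were 2-fold above on all 4 arrays. Psmb6 and Usp33 lay at least 2-fold below on all 4, which is 2.30% of members against 4.76% of all genes. At 0 h alone 12 members were above and 2 below by the same rule (all genes 8.99% and 8.9%). The median member read 0.02, 0.03, 0.05, 0.06 and 0.05 at 0, 0.5, 2, 7 and 21 h, close to the median gene. Of the 39 proteasome genes, 22 (56.4%) were above 0 on all 4 arrays and 3 (7.69%) below, against 29.5% and 29.8% of all genes.

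The PA28 subunits differed from each other. Psme1 read 0.28, 0.04, 0.17, 0.27 and 0.33 from 0 to 21 h, with differences from 0 h between -0.23 (0.5 h) and 0.06 (21 h). Psme2 read 0.41, -0.12, 0.89, 1.05 and 0.18. It was thus higher than at 0 h by 0.48 at 2 h (3.05-fold) and by 0.64 at 7 h (4.37-fold), and lower by 0.23 at 21 h. Its 2 probes disagreed in size, with an SD of the difference of 0.80 at 2 h and 0.59 at 7 h. The Psme2 difference at 2 h was 0.30 without a trend on the mean ratio. Probe 16043 was higher by 1.05 at both 2 and 7 h, while probe 15632 differed by -0.08 at 2 h and 0.23 at 7 h. The other activators, Psme3 and Psme4, caps of the proteasome found mainly in the nucleus, stayed between -0.23 and 0.09 on the 0, 2, 7 and 21 h arrays.

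Ubd, also called FAT10, is a modifier of 2 ubiquitin-like domains that targets proteins to the proteasome. Its probe 8498 read 0.65, 2.09, 1.40, 1.40 and -0.14 at 0, 0.5, 2, 7 and 21 h. It was thus high at 0.5, 2 and 7 h and below the 0 h array at 21 h. The differences from 0 h were 1.44, 0.76, 0.75 and -0.79, or 27.5-fold, 5.70-fold and 5.62-fold higher and 0.163 times the 0 h ratio. A further Ubd probe, 8449, without a value at 2 h, read 0.78, 3.51, 1.43 and -0.08 at 0, 0.5, 7 and 21 h, with the same signs of the differences (2.73, 0.65 and -0.86). Probe 8449 lies within 50 numbers of probe 8498 and, lacking a 2 h value, is not among the probes counted next. Near probe 8498 in the numbering of the array, 13 of 91 probes within 50 numbers (14.3%) also were 2-fold higher at 2 and 7 h and below 0 h at 21 h. This pattern was held by 0.915% of all such probes, which are those with a value on every array, with or without a gene symbol. Whether position on the array plays a part in the Ubd values was not tested. Brought to one distribution with the other arrays, Ubd differed by 0.45 at 2 h and 0.48 at 7 h, and without a trend on the mean ratio by 0.41 and 0.47. At 0.5 h the difference was 0.09 with one distribution, and the removal of that trend turned it to -0.76. The same count was 2 of 91 around Psmb9 probe 10018, 1 of 94 around Psme2 probe 16043 and 1 of 92 around Psmd13 probe 16058. Probes 16043 and 16058 lie within 50 numbers of each other and both held this pattern, so the 1 around each was the other. Whether position plays a part in their values was not tested either. Among genes, 0.71% of all 8452 had this order of signs.

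Psmb9 was higher than at 0 h by 0.36 ± 0.10, 0.43 ± 0.45 and 0.41 ± 0.26 at 0.5, 2 and 7 h, and at 21 h its difference was -0.38 ± 0.16 (SD, 2 probes). The 0.5 h difference changed direction under 3 alternatives: it was -0.54 with the arrays brought to one distribution, -0.16 with one spread and -1.01 without a trend on the mean ratio. The probes of Psmb9 agreed in sign at each time but not in size. Probe 10018 read 0.86, 1.29, 1.61, 1.46 and 0.60 from 0 to 21 h, and probe 8276 read 0.57, 0.86, 0.68, 0.80 and 0.08. At 2 h the difference was 0.75 on the first and 0.11 on the other. The call at 2 h was lost when the arrays were brought to one distribution (0.05), scaled to one spread (0.24) or freed of a trend on the mean ratio (0.13). At 7 h the first and last of these gave 0.15 and 0.16, and at 21 h the first gave -0.67. Psmb10 was higher by 0.33 at 2 h (2.13-fold, 1 probe), and by 0.16 at 7 h and 0.15 at 21 h. The 2 h call of Psmb10 was likewise lost under the 3 alternatives (0.10, 0.18 and 0.12), and its 7 h difference was -0.04 with the arrays brought to one distribution and -0.01 without the trend. Psmb8 differed by 0.05 ± 0.18, 0.18 ± 0.27 and -0.02 ± 0.14 at 2, 7 and 21 h (SD, 7 probes), all within the spread of its probes, and at 7 h by -0.11 with the arrays brought to one distribution and -0.03 without the trend. No member with at least 2 probes had every probe past the size rule in 1 direction at 2, 7 or 21 h, of 49 such members. Of all 2968 such genes, 7 did so upward and 8 downward at 2 h, 8 and 0 at 7 h, and 9 and 10 at 21 h, so 0 of 49 is near the background.

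**Figure D2:**
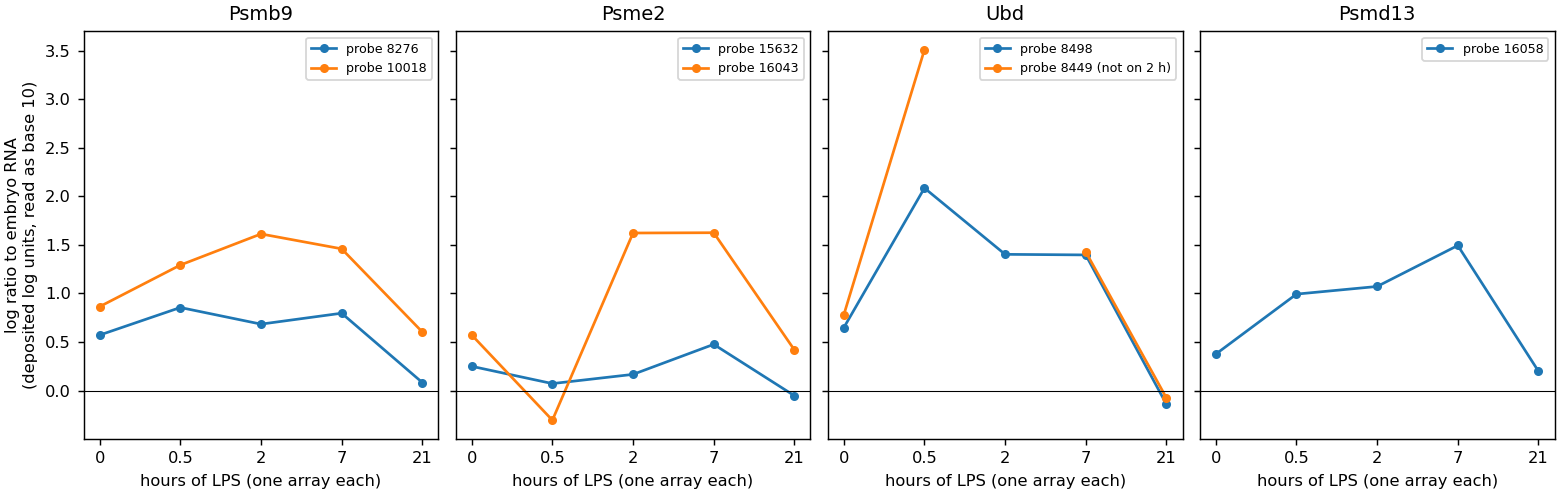
Log ratio to embryo RNA (deposited log units, read as base 10) of each probe of Psmb9, Psme2, Ubd and Psmd13 at 0, 0.5, 2, 7 and 21 h of LPS, 1 array each. The 2 Psmb9 probes and the 2 Psme2 probes differ in size at 2 and 7 h, and all probes of the 4 genes are lower at 21 h than at 7 h.

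Of the 87 members, 5 were higher at 2 h by the size rule (5.75%, all genes 4.24%) and 1 was lower (all genes 2.58%). The 5 were Ubd, Psmd13, Psme2, Psmb9 and Psmb10, and Usp2 was the lower one. At 7 h 6 were higher (6.90%, all genes 3.35%), namely Psmd13, Ubd, Psme2, Psmb9, Psma1 and Psmb6, and 0 were lower (all genes 1.4%). At 21 h Ube2j2 was higher (all genes 4.33%) and Ubd, Usp24 and Psmb9 were lower (3.45% of members, all genes 4.69%). At 0.5 h 8 were higher (all genes 19.9%) and 9 lower (all genes 10.6%). The median difference of the members was -0.01, 0.06 and 0.02 at 2, 7 and 21 h, beside -0.01, 0.02 and 0.00 over all genes. At 7 h 59 of 87 members were above their 0 h value, as were 4911 of 8452 genes.

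A list of 8 members known to be induced by interferon held Psmb8, Psmb9, Psmb10, Psme1, Psme2, Ube2l6, Usp18 and Ubd. Of these, 4 were higher at 2 h and 3 at 7 h, none was lower at either time, and at 21 h none was higher and 2 were lower. Over all genes 4.24% were higher at 2 h, 3.35% were higher at 7 h and 4.69% were lower at 21 h. The 2 h calls of Psmb9 and Psmb10, 2 of the 4, were lost under the alternatives given above. The 7 h call of Psmb9, 1 of the 3, was lost with the arrays brought to one distribution and without a trend on the mean ratio. The median difference of this list was 0.19, 0.17 and -0.16 at 2, 7 and 21 h. Ube2l6, the conjugating enzyme of the interferon-induced modifier ISG15, read -0.01, -1.55, -0.09, 0.08 and -0.24 from 0 to 21 h. Apart from the deep value of the 0.5 h array it stayed within 0.23 of its 0 h value. Usp18, which removes ISG15, read 0.60, 0.30, 0.61, 0.57 and 0.50 and was 3.95-fold above the embryo before LPS. Both enzymes were measured by 1 probe each.

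**Figure D3:**
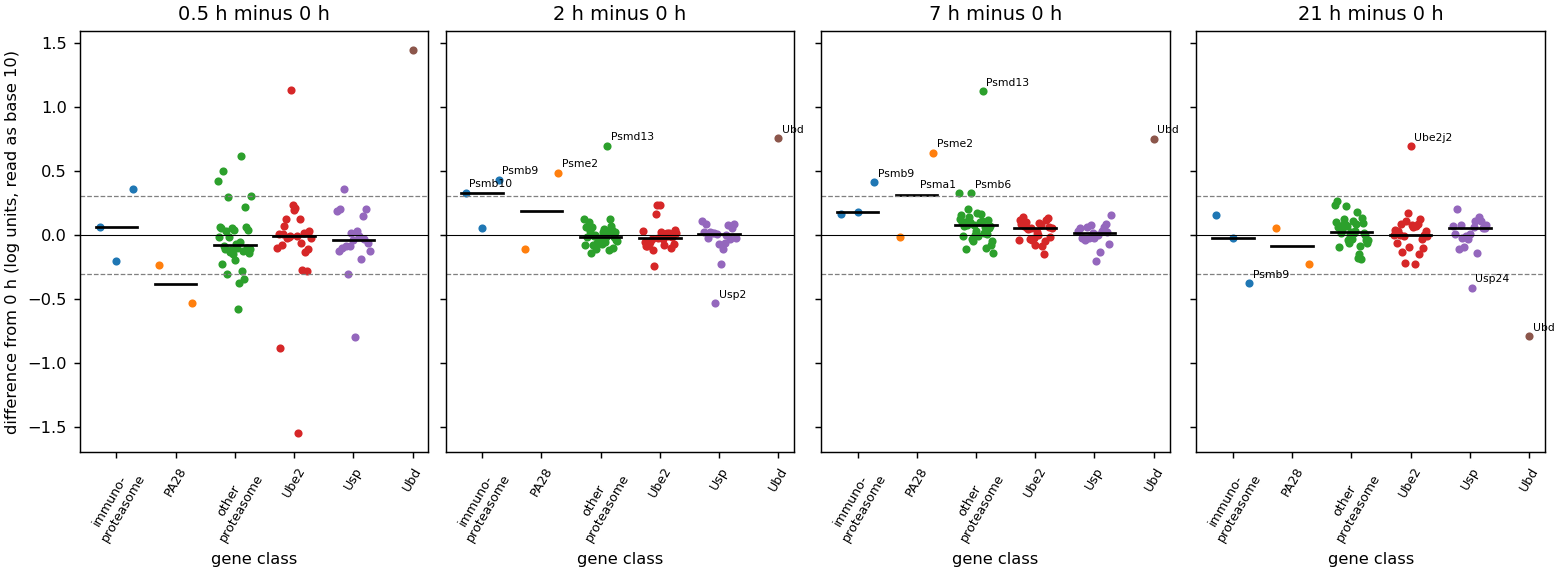
Difference of each proteasome, Ube2 and Usp gene and of Ubd from the 0 h array (log units, read as base 10) at 0.5, 2, 7 and 21 h, by gene class, with black bars for class medians and dashed lines at the 2-fold size rule of 0.301. At 2, 7 and 21 h the genes past the rule are named, and most members lie between the dashed lines.

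The structural subunits differed little from 0 h at 2 h. In the alpha ring, which gates the barrel, the 7 measured members had a median difference of 0.06, 0.10 and 0.07 at 2, 7 and 21 h. Of these 7, 6 were above their 0 h value at 7 h, as were 4911 of all 8452 genes. Psma1 was the one past the rule, at 7 h, with readings of 0.12, 0.55, 0.25, 0.45 and 0.36 (0.33 above 0 h at 7 h, 1 probe, and 0.27 without a trend on the mean ratio). Psma7 had the highest mean of the ring (0.30) and Psma5 the lowest (-0.21). Psma3 read -0.02, 0.04, 0.04, 0.13 and 0.24 from 0 to 21 h. Its difference of 0.26 at 21 h was the largest positive one of a proteasome gene at that time, and it stayed under the rule. Both of its probes gave this value to within 0.01 (SD 0.0060). Psma6 read -0.01, 0.49, 0.09, 0.07 and 0.06, and its high 0.5 h value came from 1 of 2 probes (0.85 against 0.14). The 4 non-catalytic beta subunits had medians of -0.04, 0.11 and 0.08 and none passed the rule at these times. Among them Psmb1 read 0.17 at 0 h and 0.03 at 2 h, and Psmb3 read -0.16 and -0.24. The low Psmb3 means came from 1 of 3 probes, which read -0.80 and -1.06. Its other probes were above 0, with 0.13 and 0.21 at 0 h and 0.20 and 0.15 at 2 h. Psmb2, with 5 probes the best covered of these beta subunits, read 0.04, 0.07, 0.11, 0.12 and 0.13 from 0 to 21 h. Its SD between probes of the difference was 0.09 at 2 h, 0.10 at 7 h and 0.14 at 21 h.

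Of the 6 ATPases of the regulatory particle, which unfold substrates, none passed the size rule at any of the 4 times. All 6 were below their 0 h value at 2 h, by 0.02 to 0.07. Over all genes, 3852 of 8452 were above their 0 h value at 2 h. The pooled SD between probes of the members was 0.18 at that time, larger than these differences. Psmc6 had the highest mean over the 0, 2, 7 and 21 h arrays (0.20) and Psmc4 the lowest (0.00). The 13 non-ATPase subunits had median differences of 0.02, 0.06 and 0.01 at 2, 7 and 21 h. Psmd1, the large scaffold of the base, read 0.36, 0.38, 0.35 and 0.37 on the 0, 2, 7 and 21 h arrays, and Psmd6 lay at the low end with a mean of -0.05. Psmd14, the lid enzyme that strips ubiquitin from substrates, read 0.29, 0.01, 0.31, 0.30 and 0.14 from 0 to 21 h. Psmd4, a ubiquitin receptor, read -0.01, 0.21, 0.06, 0.00 and 0.12, and its 2 probes were far apart at 21 h (SD of the difference 0.42). Psmd12, with 4 probes, was 0.11 ± 0.11 above 0 h at 7 h and 0.18 ± 0.03 at 21 h (SD between probes). Psmd10, Psmd11 and Psmd3 were past the rule downward at 0.5 h (-0.58, -0.37 and -0.34) and between -0.19 and 0.16 from 0 h at the later times.

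Psmd13, a lid subunit, was the exception in this class. Its 1 probe read 0.38, 0.99, 1.07, 1.49 and 0.20 at 0, 0.5, 2, 7 and 21 h. This is 4.98-fold higher than 0 h at 2 h and 13.2-fold higher at 7 h, and 0.666 times the 0 h ratio at 21 h. At 0.5 h its difference was 0.62, with the arrays brought to one distribution 0.01, and -0.36 without a trend on the mean ratio. The other 12 non-ATPase subunits differed from 0 h by -0.12 to 0.16 at 2 and 7 h, so none of them passed the rule with it. No further probe of Psmd13 was on the arrays with 1 symbol. Without the inducible catalytic subunits and PA28, the 34 other proteasome genes had median differences of -0.08, -0.02, 0.08 and 0.03 at 0.5, 2, 7 and 21 h. At 7 h 3 of these 34 were higher (8.82%, all genes 3.35%), Psmd13, Psma1 and Psmb6, each measured there by 1 probe. Psmb6 at 7 h was 0.33 above 0 h, and 0.28 without a trend on the mean ratio.

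**Figure D4:**
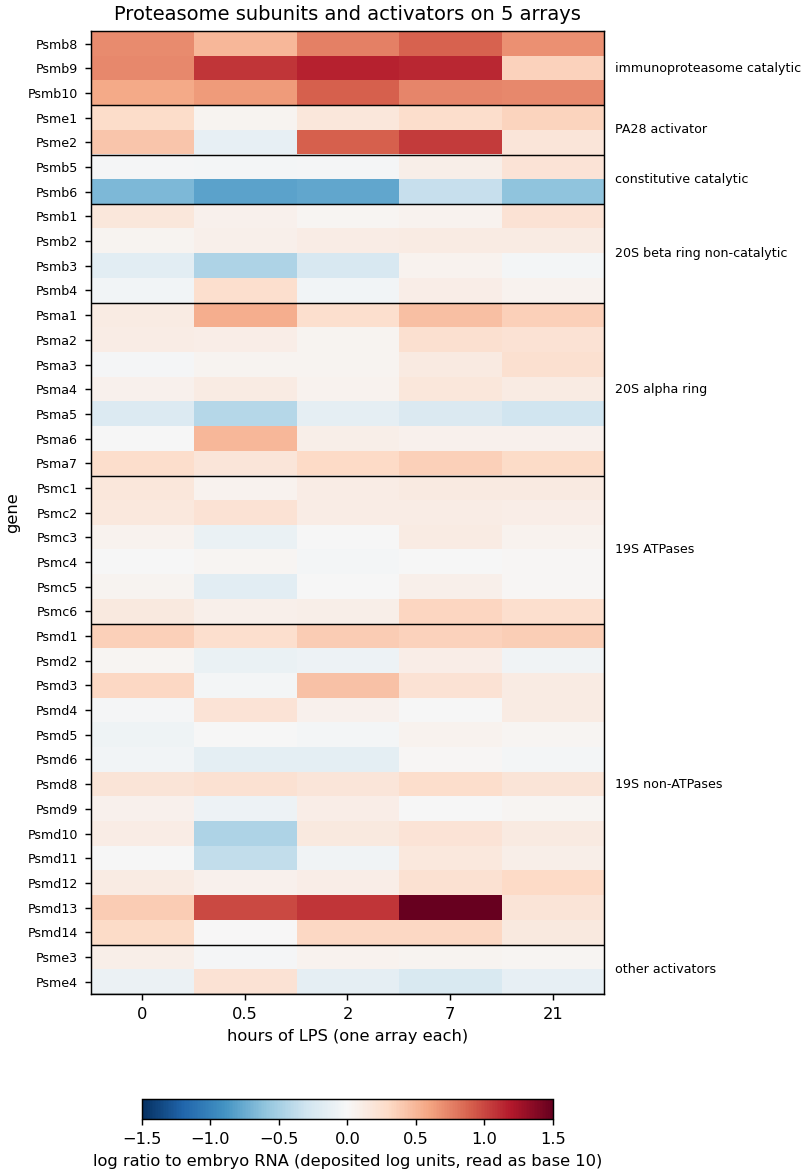
Log ratio to embryo RNA (colour, deposited log units read as base 10) of 39 proteasome subunits and activators (rows, by role) on the arrays of 0, 0.5, 2, 7 and 21 h of LPS (columns). The rows of Psmb8, Psmb9 and Psmb10 have red tones on every array, Psmb6 has blue tones on each, and Psme2 and Psmd13 are darkest at 7 h.

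The medians of the conjugating and removing enzymes lay close to each other, and to the median gene, on the 0, 2, 7 and 21 h arrays. The 25 Ube2 genes had median ratios of 0.01, -0.01, 0.00 and 0.01 at 0, 2, 7 and 21 h, and the 19 Usp genes -0.05, -0.04, -0.05 and 0.01. The Ube2 median exceeded the Usp median by 0.05, 0.03, 0.05 and 0.01 at 0, 2, 7 and 21 h. Median differences from 0 h were -0.02, 0.05 and 0.00 for Ube2 and 0.01, 0.02 and 0.06 for Usp at 2, 7 and 21 h. The gap between these medians was -0.03, 0.04 and -0.05.

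Among the conjugating enzymes Ube2t, which serves the Fanconi anaemia DNA repair pathway, had the highest mean, with 0.41, 0.13, 0.39, 0.54 and 0.30 from 0 to 21 h on 1 probe. Ube2d1 had the lowest, with -0.29, -0.36, -0.37, -0.15 and -0.26. Ube2c and Ube2s, which work with the anaphase-promoting complex, lay apart at 0 h with 0.28 and -0.17. Ube2j2, an enzyme of the endoplasmic reticulum that acts in the disposal of misfolded proteins, read 0.18, 0.37, 0.41, 0.10 and 0.87. It was the only conjugating enzyme past the rule after 0.5 h, 4.93-fold higher at 21 h on 1 probe (0.69 in log units, and 1.08 with the arrays brought to one distribution). Ube2n, which builds chains used in Toll-like receptor signalling, read -0.07 at 0 h and between -0.06 and 0.01 at 2, 7 and 21 h over 3 probes. The enzymes with the most probes had narrow ranges: Ube2b (6 probes), a partner of the ligase Rad18 in DNA damage tolerance, lay between -0.20 and -0.03 on the 5 arrays, and Ube2l3 (5 probes), which serves the linear chain assembly complex, between 0.07 and 0.16. Ube2g1 was below its 0 h value by 0.24 ± 0.14 at 2 h and 0.22 ± 0.21 at 21 h (SD, 3 probes), both under the rule. At 7 h 16 of the 25 conjugating enzymes and 11 of the 19 deubiquitinases were above their 0 h value, as were 4911 of all 8452 genes. Probes of the Ube2d genes are long cDNAs of near-identical family members, Ube2d-ps included, and their signals may not be separate. At 0.5 h Ube2h was higher by 1.13 ± 0.94 (SD, 2 probes) and Ube2l6 and Ube2c lower by 1.54 and 0.88, values of the array that stood apart.

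Among the deubiquitinases Usp18 had the highest mean (0.57) and Usp33 the lowest (-0.36). Usp2 read -0.22, -0.31, -0.75, -0.14 and -0.23 from 0 to 21 h. Its difference of -0.53 at 2 h had an SD of 0.56 between 2 probes, so it was within their spread. Usp24 read 0.42, -0.38, 0.19, 0.21 and 0.01 on 1 probe and was thus below its 0 h value on each later array, by 0.41 at 21 h. Usp4 was above the embryo by its mean (0.31 at 0 h) through 1 of 3 probes, which read 1.04, while the others read -0.01 and -0.09. Usp14, which trims ubiquitin at the proteasome itself, stayed between 0.02 and 0.13 on the 5 arrays. Usp7, a regulator of the p53 ligase Mdm2, read -0.14, -0.27, -0.17, 0.02 and -0.06 on 1 probe. Usp16, with 4 probes, stayed between -0.13 and 0.02. Usp36, without a value at 7 h, read -0.15, -0.16, -0.08 and 0.03.

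**Figure D5:**
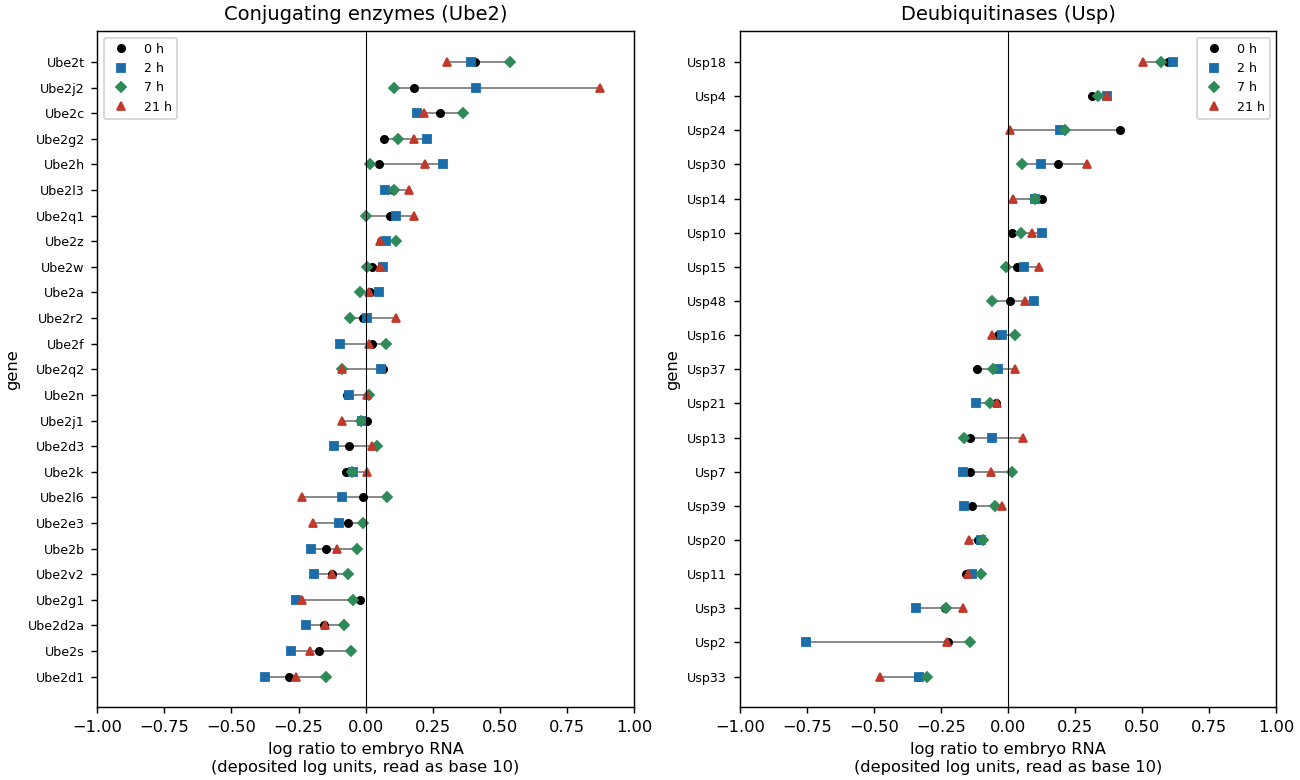
Log ratio to embryo RNA (deposited log units, read as base 10) of 25 conjugating enzymes (left) and 19 deubiquitinases (right) on the 0, 2, 7 and 21 h arrays, ordered by their mean. Both classes spread around 0, Ube2j2 stands out at 21 h (0.87) and Usp2 at 2 h (-0.75).

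Other genes of the ubiquitin pathway and of class I peptide loading, 90 measured from fixed lists, gave 3 higher and 0 lower at 2 h, 1 higher and 0 lower at 7 h, and 5 higher and 1 lower at 21 h. The shares higher were 3.33%, 1.11% and 5.56%, against 4.24%, 3.35% and 4.33% of all genes, so they were near or below that background. The higher ones at 2 h were Atg7 (0.43 ± 0.52, SD over 3 probes), an activating enzyme of autophagy, and the ubiquitin ligases Rnf4 (0.32 ± 0.55, 2 probes) and Birc3 (0.31, 1 probe). At 7 h it was the deubiquitinase Uchl1 (0.38, 1 probe). At 21 h they were Rad23b, a shuttle that carries ubiquitinated proteins to the proteasome (0.68, 1 probe), Mocs3 (0.55), Birc3 (0.50), Urm1 (0.33) and Rnf13 (0.32), and the proteasome assembly factor Psmg4 was lower by 0.40. Their median difference was -0.01, 0.04 and 0.05 at 2, 7 and 21 h. Of the 7 genes of class I peptide loading, 3 were at least 2-fold above the embryo on the 0, 2, 7 and 21 h arrays (all genes 3.38%): B2m, H2-D1 and Tapbp, which read 0.88, 0.96 and 0.59 at 0 h. Tap2 read 0.39 there, and the chaperones Pdia3, Calr and Canx read 0.17, 0.15 and -0.01. None of the 7 passed the size rule at 2, 7 or 21 h, and B2m ended at 1.08 at 21 h (difference 0.20 ± 0.17, SD over 3 probes).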

How the data were processed

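The authors deposited 1 table of log ratios per probe and array, read here as log10; how the spots were scanned, corrected and normalized is not given in the sources used here. Spot intensities were not used, so signal over background is unknown, and precision is limited by the number of arrays. The labels name indirect Cy3 labelling and no dye orientation. Deposited medians were between 0.00 and 0.07. Of 19828 probes, 14759 had 1 symbol, 170 several and 4899 none; symbols were updated through Entrez identifiers (14628 matched RefSeq of GRCm38.p6). Arrays were centred on the median over 8452 genes and probes averaged. Direction was read from macrophage and embryo genes.

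Named genes were the catalytic subunits, activators, Ube2l6, Usp18 and Ubd; members past the size rule; the highest and lowest of each class; and pathway genes past the rule. Other genes named in the text, such as Psmd1 and Usp4, were added after their values were seen. Members and lists were chosen with earlier results of these data known. Alternatives changed centring, scale, trend, probes, array filter, fold and log base. Steps were tested on simulated data. Python 3.11.15, numpy 2.4.6, pandas 2.3.3 and statsmodels 0.14.6 were used.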

Additional observations from a re-analysis of the deposited data

Results flagged for a closer look

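Psmb9, Psme2 and Ubd passed the size rule in opposite directions at different times. Psmb9 differed from 0 h by 0.36, 0.43 and 0.41 at 0.5, 2 and 7 h, and by -0.38 at 21 h. Psme2 differed by -0.53 at 0.5 h, and by 0.48 at 2 h and 0.64 at 7 h. Its downward call rests on the 0.5 h array, which stood apart, and on 1 probe there (-0.88), while the other differed by -0.18 (SD 0.49). Ubd differed by 1.44, 0.76 and 0.75 at 0.5, 2 and 7 h, and by -0.79 at 21 h. Each time is 1 array and all share the 0 h array, and these differences between times were not tested.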

How the results depend on the processing

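Of 289 values of counts and list medians under alternatives, 223 stayed near the value reported, 66 moved and 0 changed sign from a called value; of 1005 values of named genes, 951, 49 and 5. The 5 were at 0.5 h: Psmb9 at -0.54 with quantile normalization, -0.16 with one median absolute deviation and -1.01 without the loess trend, and without that trend Psmd13 at -0.36 and Ubd at -0.76. The cause was not tested. No paired analysis was possible because each group held 1 array.

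With quantile normalization, members higher were 1, 3 and 3 at 0.5, 2 and 21 h, and members lower were 15, 3 and 1 at 0.5, 2 and 7 h. With one median absolute deviation, 3, 3 and 2 were higher at 0.5, 2 and 21 h, with 2 lower at 2 h. Without the loess trend, 1, 3 and 3 were higher at 0.5, 2 and 7 h, with 17 lower at 0.5 h. Without a running median over 400 probe numbers, 5 were higher at 0.5 h. Genes with at least 2 probes, which leaves fewer genes, gave 3, 2, 2 and 0 higher at 0.5, 2, 7 and 21 h, and 5 and 1 lower at 0.5 and 21 h. A rule of 1.5-fold gave 16 and 6 higher at 0.5 and 21 h and 18, 3, 1 and 8 lower at 0.5, 2, 7 and 21 h. A rule of 3-fold gave 4, 3 and 3 higher at 0.5, 2 and 7 h and 5 and 1 lower at 0.5 and 21 h. Read as log base 2, 2, 0, 1 and 0 were higher at 0.5, 2, 7 and 21 h and 1, 0 and 0 lower at 0.5, 2 and 21 h. Read as natural log, 2, 2, 2 and 0 were higher and 3, 0 and 1 lower.

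The inducible minus constitutive difference from 0 h (0.14, 0.39, -0.03 and -0.17 at 0.5, 2, 7 and 21 h) became -0.59, 0.010 and -0.27 at 0.5, 2 and 7 h with quantile normalization, -0.42 and 0.14 at 0.5 and 2 h with one median absolute deviation, and -1.08, 0.082 and -0.20 at 0.5, 2 and 7 h without the loess trend. Genes with at least 2 probes gave 0.20 at 7 h and -0.42 at 21 h. The same gap in the ratio to embryo, with alternatives chosen after its values were seen, was 1.51 at 0 h and 1.20 at 21 h with quantile normalization, and 1.29 at 0 h and 1.22 at 7 h with one median absolute deviation. Genes with at least 2 probes gave 0.73, 0.97 and 0.31 at 0, 2 and 21 h. Without the 0.5 h array it was 0.72, 0.95 and 0.80 at 0, 2 and 7 h. Genes with 1 probe have no value among genes of at least 2, the loess trend applies to differences alone, and the setting without the 0.5 h array has none for that time.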

Other observations

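A group of 3 members by name stand outside the machinery. Psme3ip1 differed from 0 h by 0.02 at 2 h, 0.10 at 7 h and 0.17 at 21 h over 4 probes, and Ube2cbp by -0.10, 0.11 and 0.10 on 1 probe. The pseudogene Ube2d-ps differed by -0.13, -0.17 and -0.17 over 3 probes. Of the 9 member probes that lacked a value on 1 array, 1 of Usp10 read 0.35 at 0 h and -0.22 at 21 h, while the mean of the 3 full Usp10 probes differed by 0.07 between these times. A probe of Ube2n without a 0.5 h value differed by -0.43 at 2 h, while the mean of its 3 full probes differed by 0.01.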
